A study of Mus musculus with 8 samples.

Results

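Semaphorins, ephrins and their receptors were examined in RNA from mouse hindlimb long bone after doxorubicin. The members were the protein-coding genes of the deposited table whose symbols name a semaphorin of classes 3 to 7, a plexin, a neuropilin, an ephrin or an Eph receptor. This gave 53 of 55421 genes, namely 20 semaphorins, 9 plexins, 2 neuropilins, 8 ephrins, 9 EphA receptors and 5 EphB receptors. The 4 mice of the doxorubicin group (libraries DoxoR 1 to DoxoR 4) had received an intraperitoneal injection of doxorubicin, a DNA-damaging chemotherapy drug, at 10 mg/kg. The 4 mice of the vehicle group (libraries CTRL 1 to CTRL 4) had received saline. All were wild-type C57BL/6 males, 15 weeks old at the start, and bones were collected on day 30. Tibiae and femurs of a mouse were pooled into 1 library after the bone ends were cut off and the marrow was spun out.

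Semaphorins and ephrins are cell-surface or secreted guidance cues that tell a neighbouring cell to extend, retract or hold its place. Class 3 semaphorins are secreted and mostly bind a neuropilin, which pairs with a plexin that carries the signal. The other vertebrate classes studied here are bound to the membrane and bind plexins directly. Ephrins and Eph receptors are both membrane proteins, so they signal at cell contacts and in both directions. In bone, Sema3a is known as an osteoblast product that restrains osteoclasts, Sema4d as an osteoclast product that acts on plexin-B1 of osteoblasts, and ephrin-B2 with EphB4, and ephrin-A2 with EphA2, as pairs through which osteoclasts and osteoblasts signal to each other.

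Of the 53 genes, 46 passed the filter on low counts. The other 7 were read rarely or not at all in most libraries. Over all 8 libraries Epha6 had 1 count, Epha8 and Epha10 had 3 each and Sema5b had 8, while Epha1 had 29, Epha5 had 48 and Efna3 had 64. Libraries held between 23699525 and 35747083 counts, so a count of 1 to 3 lies at the floor of detection. The EphA family was therefore represented mainly by Epha2, Epha3, Epha4 and Epha7.

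The libraries held the cells that the label names, and others. No gene of the osteoblast, osteocyte or osteoclast marker lists was at 0 in any library. The 10 neutrophil markers still summed to between 10500 and 21600 CPM (counts per 1000000 counts of the library, TMM-scaled) in doxorubicin bones and between 13100 and 23300 CPM in vehicle bones, and the 10 erythroid markers to between 9690 and 21200 CPM and between 12600 and 24200 CPM in doxorubicin and vehicle bones. Skeletal muscle markers ran from 16500 to 40400 CPM in doxorubicin bones and from 5370 to 29600 CPM in vehicle bones, with CTRL 3 the lowest. In bulk RNA of this kind, fewer cells of a type and less RNA per cell cannot be told apart.

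No gene of these families differed between doxorubicin and vehicle bones at an adjusted p under 0.05. The count was 0 of 46 in edgeR's quasi-likelihood test, in DESeq2 and in limma-voom. DESeq2 left the adjusted p of Efna4 and Ephb1 undefined, and of 1982 genes in all, and these are counted as not called. The share of all 17035 tested genes called was 0.0% in edgeR, 0.17% in DESeq2 and 0.0% in limma-voom. At an unadjusted p under 0.05, edgeR gave 3 of the 46 members, against 5.36% of all genes tested, so the members' share was near the background. These were Efna1 and Sema3g, which lay higher in doxorubicin bones like 2.13% of all genes, and Plxna4, which lay lower like 3.23% of all genes. DESeq2 and limma-voom each also gave 3, against 5.59% and 5.52% of all genes. Scaling by library size alone left 1, Plxna4, against 4.03% of all genes, and leaving out CTRL 4 gave 8, beside 10.5% of all genes in that fit.

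**Figure D1:**
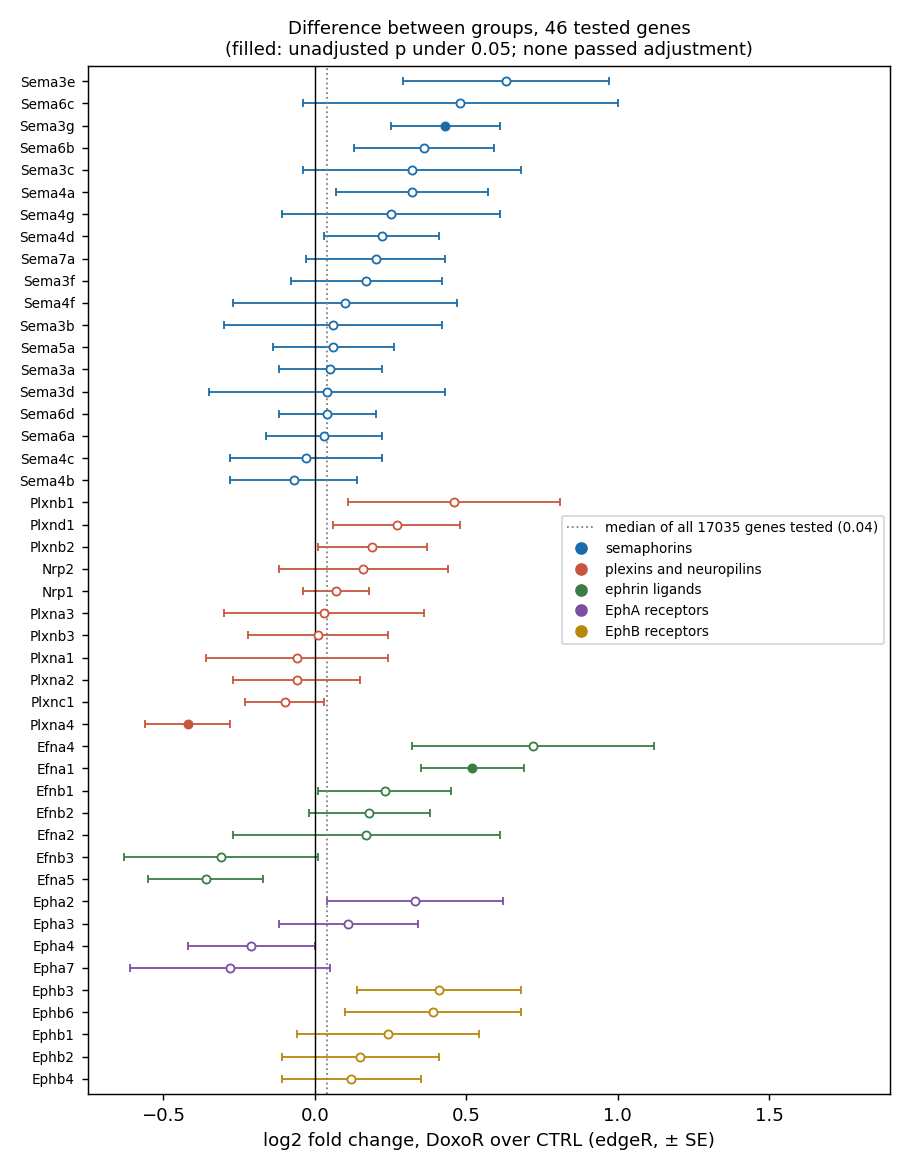
Log2 fold change of doxorubicin (DoxoR) over vehicle (CTRL) bones for the 46 tested genes, with its SE from edgeR's quasi-likelihood test, coloured by family. Filled points are Efna1, Sema3g and Plxna4, with an unadjusted p under 0.05, and the dotted line is the median of all genes tested (0.04).

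Sequence upstream of the start of Efna1, Sema3g and Epha2 is shown here because Efna1 and Sema3g were the ligands with the smallest p and Epha2 encodes the main receptor of ephrin-A1. Each is the 250 bases before a RefSeq start (GRCm38), written 5′ to 3′ on the gene's own strand at chr3:89279646-89279895 (minus), chr14:31217623-31217872 (plus) and chr4:141300971-141301220 (plus). Efna1 has 2 RefSeq starts, and its window precedes the inner one, so that it lies within the span of the longer transcript. Capitals mark GC boxes (GGGCGG or its complement CCGCCC), to which Sp1-family factors can bind.
Efna1: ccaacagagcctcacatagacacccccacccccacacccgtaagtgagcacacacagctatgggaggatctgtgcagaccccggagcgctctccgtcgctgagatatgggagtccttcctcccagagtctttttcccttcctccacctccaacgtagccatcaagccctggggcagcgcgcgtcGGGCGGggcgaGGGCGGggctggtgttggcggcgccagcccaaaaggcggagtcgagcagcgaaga
Sema3g: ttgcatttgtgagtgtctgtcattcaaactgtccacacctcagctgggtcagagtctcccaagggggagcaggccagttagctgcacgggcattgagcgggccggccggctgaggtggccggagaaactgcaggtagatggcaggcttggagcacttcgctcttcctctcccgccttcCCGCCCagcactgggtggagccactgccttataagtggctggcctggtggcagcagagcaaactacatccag
Epha2: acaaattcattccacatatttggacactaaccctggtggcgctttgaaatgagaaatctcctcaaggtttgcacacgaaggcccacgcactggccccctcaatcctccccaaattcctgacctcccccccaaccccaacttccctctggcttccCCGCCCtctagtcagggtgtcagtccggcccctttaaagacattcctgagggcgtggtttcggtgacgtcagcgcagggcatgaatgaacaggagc

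The Efna1 window held 2 GC boxes and 18 CpG dinucleotides, that of Sema3g 1 and 8, and that of Epha2 1 and 9. Shares over genes were counted on the first RefSeq entry of each gene, which for Efna1 may not be the window shown. A GC box on either strand was found in 36 of the 47 members that the RefSeq table matched, or 76.6%, against 32.9% of all 27025 genes with an entry. Of the tested members it was found in 30 of 40, a share of 75%, against 55.8% of the 11886 tested genes with an entry. A TATA box (TATAAA or TTTATA) was found in 1 tested member, Efnb2, or 2.5%, against 7.06% of those genes, and a CCAAT box (CCAAT or ATTGG) in 27.5% of tested members against 36.1%. No motif contains another, both strands were searched, and a match is a description of the window only.

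Ephrin ligands came first by p. Efna1 (chr3:89271733-89281142, minus strand) encodes ephrin-A1, a GPI-anchored ligand made by endothelial and other cells. It stood at 10.2, 8.38, 7.31 and 7.82 CPM in DoxoR 1 to 4, against 6.03, 4.48, 7.06 and 5.77 CPM in CTRL 1 to 4. All 4 doxorubicin libraries lay above all 4 vehicle libraries, which made Efna1 the 1 tested member whose groups did not overlap, against 3.59% of all genes in either direction and 1.64% with doxorubicin higher. The means were 8.42 ± 1.25 CPM in doxorubicin bones and 5.84 ± 1.06 CPM in vehicle bones (SD, n = 4 each). The log2 fold change was 0.52 ± 0.17 (SE), with an unadjusted p of 0.0119 and an adjusted p of 0.853 in edgeR and an adjusted p of 0.407 in DESeq2. With any 1 library left out it lay between 0.40 and 0.59. The gap between the lowest doxorubicin and the highest vehicle library was narrow, and it closed when library size was the only scaling.

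Of the other GPI-anchored ephrins tested, Efna2 and Efna4 had estimates above 0 and Efna5 below, none with an unadjusted p under 0.05. Efna5 (ephrin-A5) had 5.39, 5.44, 3.36 and 4.60 CPM in DoxoR 1 to 4, against 6.67, 5.04, 6.70 and 5.57 CPM in CTRL 1 to 4. The groups overlapped at CTRL 2 only, and the log2 fold change was −0.36 ± 0.19 (SE; edgeR adjusted p = 0.856). Without DoxoR 3 it was −0.24. Efna2, the ephrin-A2 of osteoclasts, had 1.48, 1.35, 0.527 and 0.695 CPM in DoxoR 1 to 4, against 0.974, 0.280, 1.12 and 1.15 CPM in CTRL 1 to 4. DoxoR 1 and DoxoR 2 were the highest and CTRL 2 the lowest, with overlap between them. Its log2 fold change of 0.17 ± 0.44 (SE) lay below 0 without DoxoR 1, DoxoR 2 or CTRL 2. Efna4 had the largest estimate of the family, 0.72 ± 0.40 (SE), on a mean of 0.588 ± 0.159 CPM in doxorubicin bones and 0.354 ± 0.189 CPM in vehicle bones (SD, n = 4 each), and was singled out once its values were known.

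The transmembrane ephrin-B ligands overlapped between the groups. Efnb1 (ephrin-B1, which osteoblasts and their precursors make) had 14.0, 20.2, 10.8 and 11.4 CPM in DoxoR 1 to 4, against 13.4, 10.0, 10.0 and 14.8 CPM in CTRL 1 to 4. DoxoR 2 alone stood above every vehicle library, and the log2 fold change of 0.23 ± 0.22 (SE) was −0.028 without it. Efnb2 (ephrin-B2, known from arterial endothelium and osteoclasts) had 8.79, 10.5, 6.75 and 8.42 CPM in DoxoR 1 to 4, against 10.4, 7.23, 6.30 and 6.62 CPM in CTRL 1 to 4. Its log2 fold change was 0.18 ± 0.20 (SE; edgeR adjusted p = 0.873), and 0.36 without CTRL 1, 0.057 without CTRL 3 and 0.036 without DoxoR 2. Efnb3 was the least abundant of the 3, at 0.998 ± 0.324 CPM in doxorubicin bones and 1.22 ± 0.418 CPM in vehicle bones (SD, n = 4 each).

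Among the receptors of the ephrins, Epha2 and Ephb4 were the most abundant per length of exon. Epha2 had 20.6, 23.2, 10.4 and 12.5 CPM in DoxoR 1 to 4, against 18.2, 11.2, 8.94 and 14.8 CPM in CTRL 1 to 4. DoxoR 1 and DoxoR 2 lay above every vehicle library while DoxoR 3 and DoxoR 4 lay within the vehicle range. The log2 fold change of 0.33 ± 0.29 (SE; edgeR adjusted p = 0.858) was 0.10 without DoxoR 2, 0.14 without CTRL 3 and 0.52 without CTRL 1. It was 0.056 when residual marrow, taken as the averaged log CPM of neutrophil and erythroid markers, was a covariate. Erythroid markers had 0 of 10 genes above 0 and neutrophil markers 5 of 10. Here and below, this covariate can therefore also take up part of a difference between the groups. Epha4, a receptor of both ephrin classes, had 4.39, 2.70, 2.77 and 4.26 CPM in DoxoR 1 to 4, against 4.87, 4.11, 3.61 and 3.65 CPM in CTRL 1 to 4. DoxoR 2 and DoxoR 3 lay below every vehicle library, and the log2 fold change was −0.21 ± 0.21 (SE). It was −0.35 without DoxoR 1 and −0.11 without CTRL 1. Of the 4 tested EphA receptors, 2 lay above and 2 below 0.

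All 5 EphB receptors lay above 0, as did 57.2% of all genes tested. The median log2 fold change of the 5 was 0.24, and none had an unadjusted p under 0.05. Ephb4, the receptor of ephrin-B2 on veins and osteoblasts, had 11.3, 15.6, 9.09 and 10.9 CPM in DoxoR 1 to 4, against 11.9, 7.93, 8.76 and 14.6 CPM in CTRL 1 to 4. The groups covered nearly the same range, and the log2 fold change of 0.12 ± 0.23 (SE) was −0.079 without DoxoR 2. Ephb3 had 2.74, 2.55, 1.88 and 2.39 CPM in DoxoR 1 to 4, against 2.21, 1.03, 1.55 and 2.36 CPM in CTRL 1 to 4. Ephb6, whose kinase domain is inactive, had 1.57, 1.74, 1.05 and 1.26 CPM in DoxoR 1 to 4, against 1.01, 0.747, 0.863 and 1.65 CPM in CTRL 1 to 4. CTRL 2 was the lowest library for both. Their log2 fold changes were 0.41 ± 0.27 and 0.39 ± 0.29 (SE), and without CTRL 2 they were 0.21 and 0.25. Ephb4 overlaps the gene Zan on the other strand, and no source used here says whether counting used strand, without which reads of such pairs cannot be told apart.

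Semaphorins were the largest family, with 17 of 19 tested members above 0 and a median log2 fold change of 0.17. All 7 class 3 semaphorins lay above 0, as did 4 of 6 in class 4, 4 of 4 in class 6 and the single tested members of classes 5 and 7. Of all genes tested, 57.2% lay above 0. The 46 members together had 36 above 0 and a median of 0.16, against a median of 0.04 over all genes. Without DoxoR 2 the 36 became 22 and the median −0.02, beside 51.1% of all genes, and without CTRL 2 they were 24 and 0.02, beside 51.6%. Scaled by library size alone, 29 lay above 0 with a median of 0.08, beside 47.0% of all genes. With a covariate for residual marrow 26 lay above 0, and the median of 0.05 was near that of all genes in the same fit, 0.04.

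**Figure D2:**
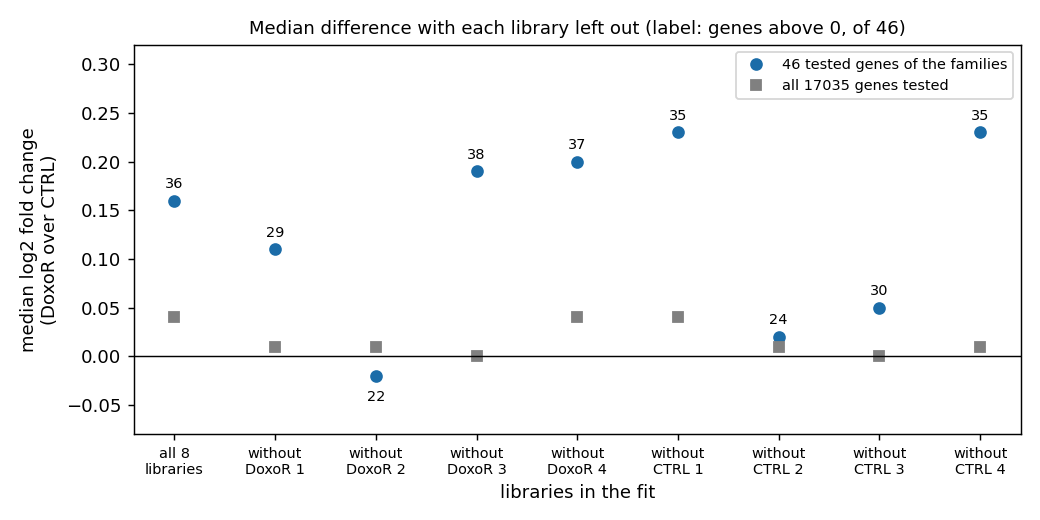
Median log2 fold change (DoxoR over CTRL) of the 46 tested members (circles) and of all genes tested (squares), with all 8 libraries and with each left out in turn; the label gives how many members lay above 0. The members' median of 0.16 lay at −0.02 without DoxoR 2 and at 0.02 without CTRL 2.

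Sema3g, a class 3 semaphorin of arterial endothelium and fat, was the semaphorin with the smallest p. It had 10.2, 14.9, 10.2 and 11.3 CPM in DoxoR 1 to 4, against 11.0, 8.45, 7.29 and 7.83 CPM in CTRL 1 to 4. CTRL 1 was the vehicle library that reached into the doxorubicin range. The means were 11.7 ± 2.25 and 8.64 ± 1.65 CPM in doxorubicin and vehicle bones (SD, n = 4 each), and the log2 fold change was 0.43 ± 0.18 (SE), with an unadjusted p of 0.0352 and an adjusted p of 0.856 in edgeR. Without DoxoR 2 it was 0.26. With a covariate for residual marrow or for muscle the unadjusted p in edgeR was 0.0601 or 0.0525. Endothelial markers had 6 of 10 genes above 0 and summed to between 255 and 381 CPM in doxorubicin and between 296 and 388 CPM in vehicle bones. Adipocyte markers had 7 of 8 above 0 and summed to between 291 and 540 CPM in doxorubicin and between 289 and 460 CPM in vehicle bones. They were highest in DoxoR 2, where Sema3g was also highest, and next in CTRL 3, where Sema3g was lowest. The part of either cell type in the Sema3g difference was not tested.

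Sema3e binds plexin-D1 without a neuropilin and is known for steering vessel growth. It had 3.09, 2.01, 1.25 and 1.09 CPM in DoxoR 1 to 4, against 1.20, 1.49, 0.914 and 1.22 CPM in CTRL 1 to 4. DoxoR 1 was the highest library, and DoxoR 2 also lay above every vehicle library. The log2 fold change of 0.63 ± 0.34 (SE, edgeR adjusted p = 0.856) was 0.27 without DoxoR 1. Sema3a had 15.3, 24.7, 19.1 and 20.1 CPM in DoxoR 1 to 4, against 17.2, 18.0, 24.5 and 17.0 CPM in CTRL 1 to 4, so that the ranges almost coincided. Its log2 fold change was 0.05 ± 0.17 (SE), and −0.11 without DoxoR 2.

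The 4 semaphorins with the highest level per length, Sema7a, Sema6d, Sema4d and Sema4a, are membrane-bound. Sema7a, a GPI-anchored semaphorin also carried by blood cells, had the highest level per length of the family and stood at 41.7, 54.1, 37.0 and 31.1 CPM in DoxoR 1 to 4, against 48.4, 31.0, 23.4 and 40.1 CPM in CTRL 1 to 4. The groups overlapped widely, and the log2 fold change of 0.20 ± 0.23 (SE) was 0.0056 without DoxoR 2 and 0.0029 without CTRL 3. Sema4d had 56.0, 61.5, 53.9 and 49.7 CPM in DoxoR 1 to 4, against 57.1, 37.8, 34.2 and 60.8 CPM in CTRL 1 to 4. Its doxorubicin libraries lay close together, near the higher 2 of the vehicle libraries, and the log2 fold change was 0.22 ± 0.19 (SE; edgeR adjusted p = 0.856). Without CTRL 3 it was 0.054. Sema6d, which in mice signals through plexin-A1 to osteoclast precursors, had 79.5, 91.8, 60.8 and 69.6 CPM in DoxoR 1 to 4, against 71.0, 58.2, 80.2 and 83.3 CPM in CTRL 1 to 4. The groups covered much the same range, with a log2 fold change of 0.04 ± 0.16 (SE) that was −0.094 without DoxoR 2.

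**Figure D3:**
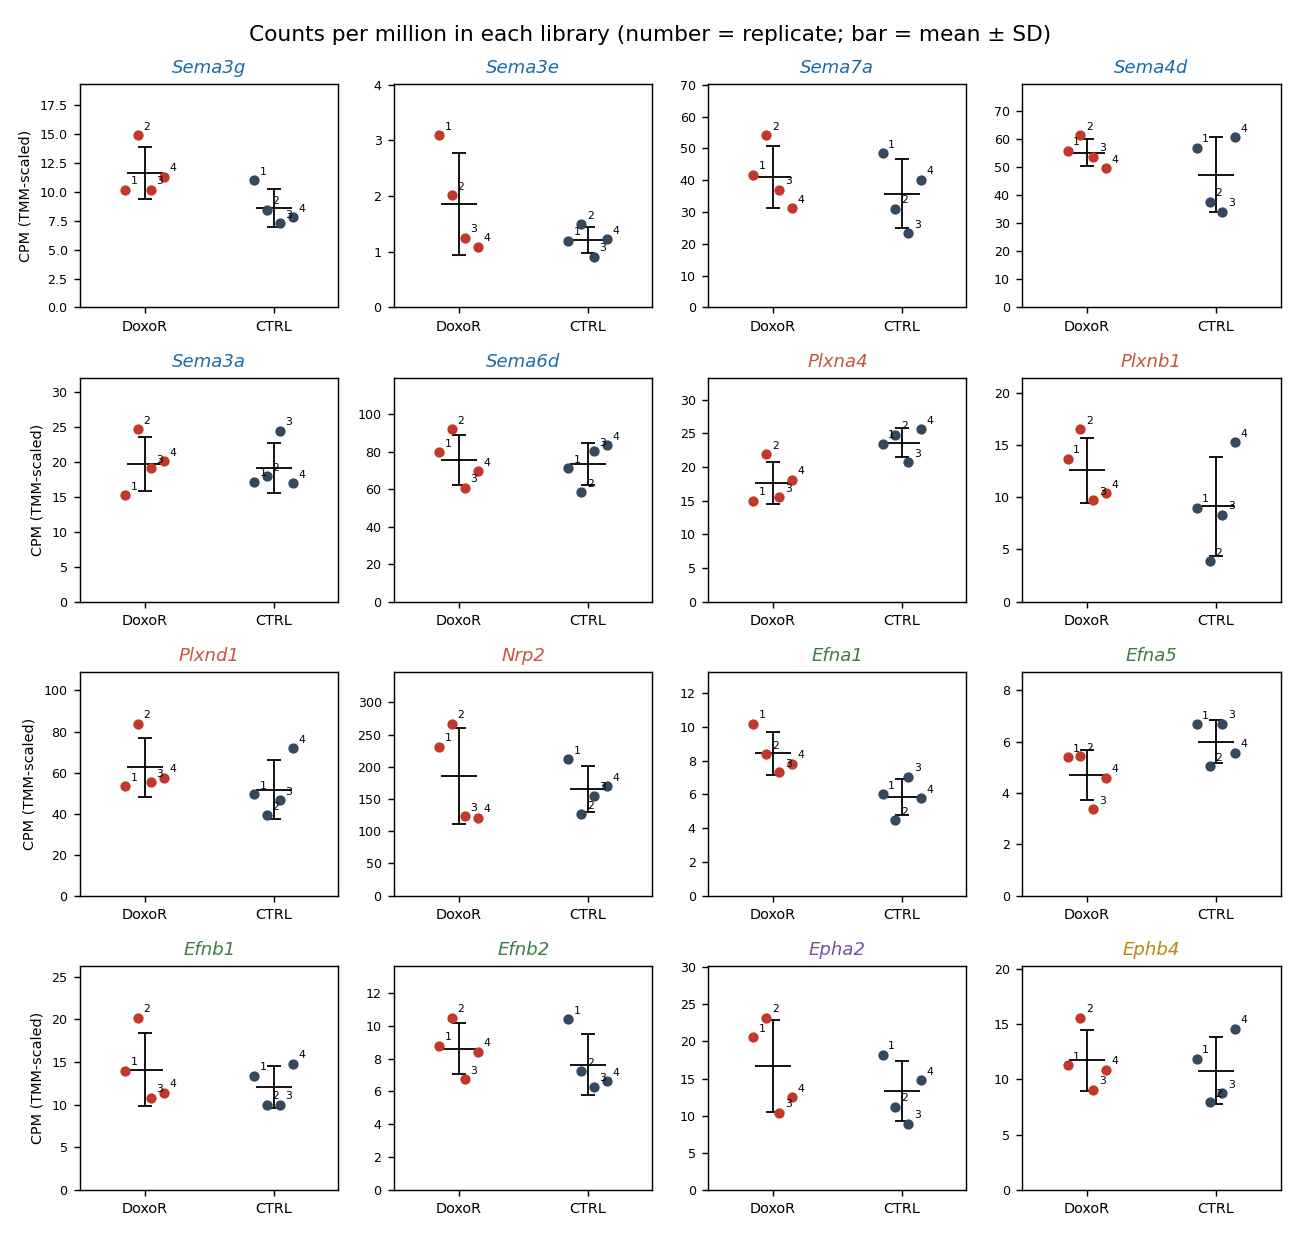
TMM-scaled CPM of 16 members in each library (points, numbered by replicate) for doxorubicin (DoxoR) and vehicle (CTRL) bones, with the mean ± SD of each group; every y axis starts at 0 and has its own scale. Efna1 is the member whose groups do not overlap, with 7.31 CPM in the lowest doxorubicin and 7.06 CPM in the highest vehicle library.

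Plexins split around 0, with 5 of 9 above it and a median log2 fold change of 0.01. Plxna4 (chr6:32144268-32588192, minus strand), a receptor for class 3 and class 6 semaphorins in neurons and myeloid cells, was the member furthest below 0. It had 15.0, 21.9, 15.5 and 18.1 CPM in DoxoR 1 to 4, against 23.5, 24.8, 20.7 and 25.6 CPM in CTRL 1 to 4. DoxoR 2 alone reached the vehicle range, just above CTRL 3. The means were 17.6 ± 3.18 CPM in doxorubicin and 23.6 ± 2.16 CPM in vehicle bones (SD, n = 4 each). The log2 fold change was −0.42 ± 0.14 (SE), with an unadjusted p of 0.0147 and an adjusted p of 0.856 in edgeR and an adjusted p of 0.516 in DESeq2.

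The estimate for Plxna4 kept its sign in every fit, between −0.57 and −0.37 with 1 library left out and at −0.47 with a covariate for residual marrow. Macrophage markers had 1 of 10 genes above 0 and summed to between 347 and 504 CPM in doxorubicin and between 398 and 633 CPM in vehicle bones. Megakaryocyte markers had 0 of 10 above 0, with sums between 835 and 1320 CPM in doxorubicin and between 1280 and 2000 CPM in vehicle bones. Neutrophil markers, also myeloid, had 5 of 10 above 0, and erythroid markers 0 of 10. Osteoclast markers went the other way, with 11 of 12 above 0. They summed to between 1440 and 1830 CPM in doxorubicin and between 941 and 1790 CPM in vehicle bones. The part of any of these cell types in the Plxna4 difference was not tested. Of the antisense RNAs that overlap Plxna4, Plxna4os1 had 127 counts in all 8 libraries together, Plxna4os2 had 1 and Plxna4os3 had 0, against 4694 for Plxna4.

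The plexins known from bone and vessels did not stand apart from vehicle. Plxnb1, the Sema4d receptor of osteoblasts, had 13.7, 16.5, 9.71 and 10.4 CPM in DoxoR 1 to 4, against 8.99, 3.87, 8.33 and 15.3 CPM in CTRL 1 to 4. All doxorubicin libraries lay above all vehicle libraries but CTRL 4, and the log2 fold change of 0.46 ± 0.35 (SE; edgeR adjusted p = 0.856) was 0.80 without CTRL 4 and 0.20 without CTRL 2. Plxnd1, the endothelial receptor of Sema3e, had 53.5, 83.9, 55.3 and 57.5 CPM in DoxoR 1 to 4, against 49.4, 39.1, 46.5 and 72.0 CPM in CTRL 1 to 4. Each group had 1 high library, DoxoR 2 and CTRL 4, and the log2 fold change of 0.27 ± 0.21 (SE) was 0.071 without DoxoR 2 and 0.45 without CTRL 4. Plxna1, which binds Sema6d on osteoclast precursors, had 15.6, 26.2, 15.0 and 16.6 CPM in DoxoR 1 to 4, against 19.4, 10.9, 15.8 and 30.4 CPM in CTRL 1 to 4. The 2 highest libraries were again CTRL 4 and DoxoR 2. Its log2 fold change of −0.06 ± 0.30 (SE) was 0.23 without CTRL 4.

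The neuropilins, co-receptors of class 3 semaphorins and of VEGF, included the member with the highest level. Nrp2 had 231, 267, 123 and 121 CPM in DoxoR 1 to 4, against 212, 126, 155 and 170 CPM in CTRL 1 to 4. The vehicle libraries fell inside the span of the doxorubicin libraries, and the log2 fold change of 0.16 ± 0.28 (SE; edgeR adjusted p = 0.906) was −0.095 without DoxoR 2. Nrp1 had 36.1, 43.8, 37.9 and 38.2 CPM in DoxoR 1 to 4, against 42.7, 32.6, 36.9 and 36.4 CPM in CTRL 1 to 4. Its coefficient of variation among doxorubicin libraries, 8.58%, was the lowest of the 46 in that group, while among vehicle libraries Plxnc1 had the lowest, 3.9%. The median of the 46 was 25.6% in the doxorubicin and 27.8% in the vehicle group. The log2 fold change of Nrp1 was 0.07 ± 0.11 (SE), and −0.019 without DoxoR 2.

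Levels of different genes are compared only per kilobase of exon. Nrp2 led, at 15.7 ± 6.32 CPM per kb in doxorubicin bones and 14.0 ± 3.01 CPM per kb in vehicle bones (SD, n = 4 each). Sema7a followed at 12.4 ± 2.96 and 10.8 ± 3.29 CPM per kb, within the spread of Nrp2, and then Plxnd1 at 8.57 ± 1.96 and 7.09 ± 1.94 CPM per kb in doxorubicin and vehicle bones. Sema4d, Sema6d and Sema4a came next, between 6.98 and 7.20 CPM per kb in doxorubicin bones and between 5.57 and 6.93 CPM per kb in vehicle bones, and their order did not exceed their spread. Of the ephrins, Efna1 stood at 4.60 ± 0.683 and 3.19 ± 0.580 and Efnb1 at 4.09 ± 1.24 and 3.49 ± 0.696 CPM per kb in doxorubicin and vehicle bones, within each other's spread. The leading EphA receptor, Epha2, at 3.57 ± 1.32 and 2.84 ± 0.872, and the leading EphB receptor, Ephb4, at 2.52 ± 0.590 and 2.33 ± 0.657 CPM per kb in doxorubicin and vehicle bones (SD, n = 4 each). The least abundant tested member was Ephb2, at 0.0904 ± 0.0272 and 0.0818 ± 0.0117 CPM per kb in doxorubicin and vehicle bones.

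**Figure D4:**
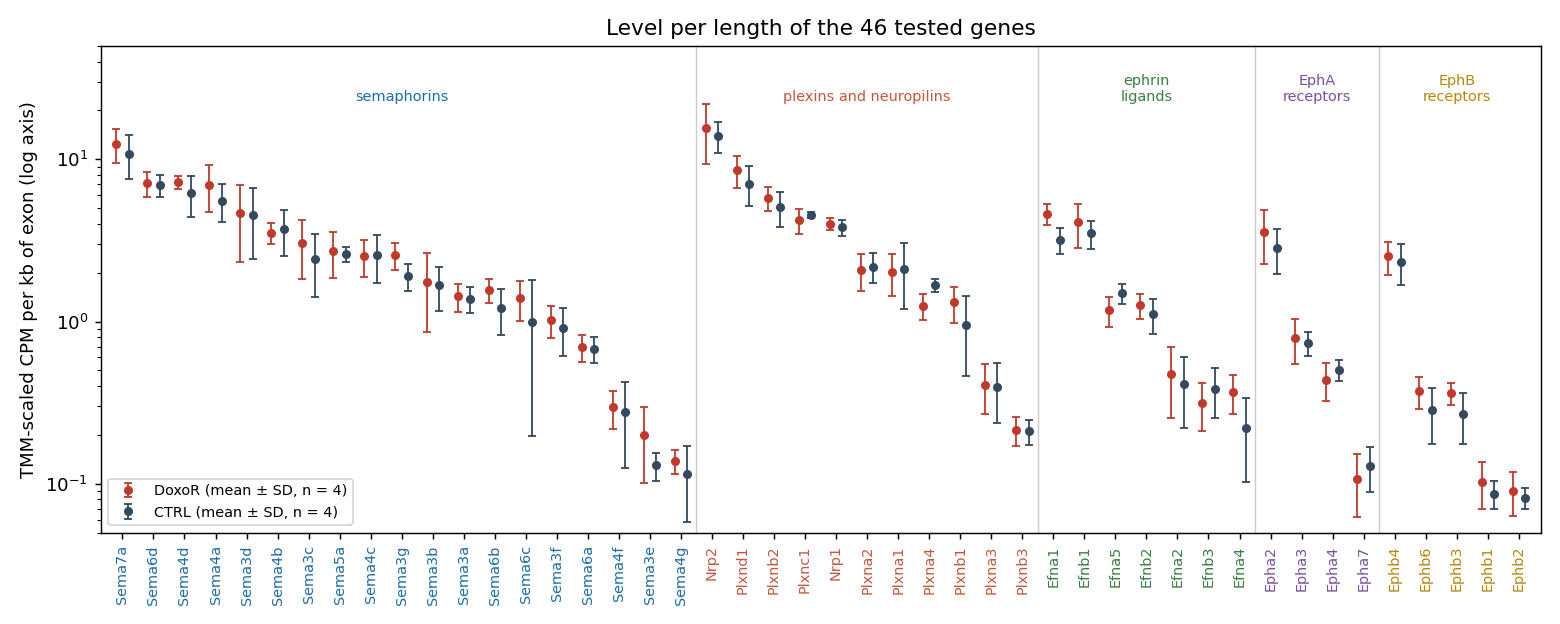
Level of the 46 tested members in TMM-scaled CPM per kb of exon (log axis), as mean ± SD over 4 doxorubicin (DoxoR) and 4 vehicle (CTRL) libraries, ordered by level within each family. Nrp2 and Sema7a lead at 15.7 and 12.4 CPM per kb in doxorubicin bones.

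Single libraries set much of the spread of these genes. DoxoR 2 was the highest of the 8 libraries for 19 of the 46 tested members and CTRL 2 the lowest for 17. The members summed to 1030, 1200, 807 and 823 CPM in DoxoR 1 to 4, against 1000, 719, 813 and 1000 CPM in CTRL 1 to 4, so that DoxoR 2 and CTRL 2 were also the ends of the whole set. The 12 osteoblast markers summed to 14700, 18500, 6830 and 5700 CPM in DoxoR 1 to 4, against 13300, 6470, 9230 and 9300 CPM in CTRL 1 to 4. DoxoR 1, DoxoR 2 and CTRL 1, the 3 libraries highest in osteoblast markers, were also the 3 highest in Nrp2 and Epha2, a match seen once the values were known. The same 3 were highest in fibroblast and tendon markers, at 3120, 2030 and 2170 CPM. They were also the 3 lowest in neutrophil markers, at 10500, 10700 and 13100 CPM. The part of any of these cell types in the levels was not tested.

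Another pair of members, picked once their values were known, had the opposite order within the doxorubicin group. Sema4a, a semaphorin of immune cells, had 24.4, 30.8, 49.8 and 45.9 CPM in DoxoR 1 to 4, against 28.4, 21.8, 29.6 and 40.7 CPM in CTRL 1 to 4. Plxnc1, the Sema7a receptor of myeloid cells, had 28.7, 31.2, 40.9 and 40.1 CPM in DoxoR 1 to 4, against 37.4, 36.6, 37.3 and 40.0 CPM in CTRL 1 to 4. Within the doxorubicin group both genes were highest in DoxoR 3 and DoxoR 4, where neutrophil markers summed to 21600 and 18200 CPM, against 10500 and 10700 CPM in DoxoR 1 and DoxoR 2. Among vehicle libraries both were highest in CTRL 4, while neutrophil markers summed to 13100, 17900, 23300 and 13300 CPM in CTRL 1 to 4. The log2 fold change was 0.32 ± 0.25 for Sema4a and −0.10 ± 0.13 for Plxnc1 (SE).

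**Figure D5:**
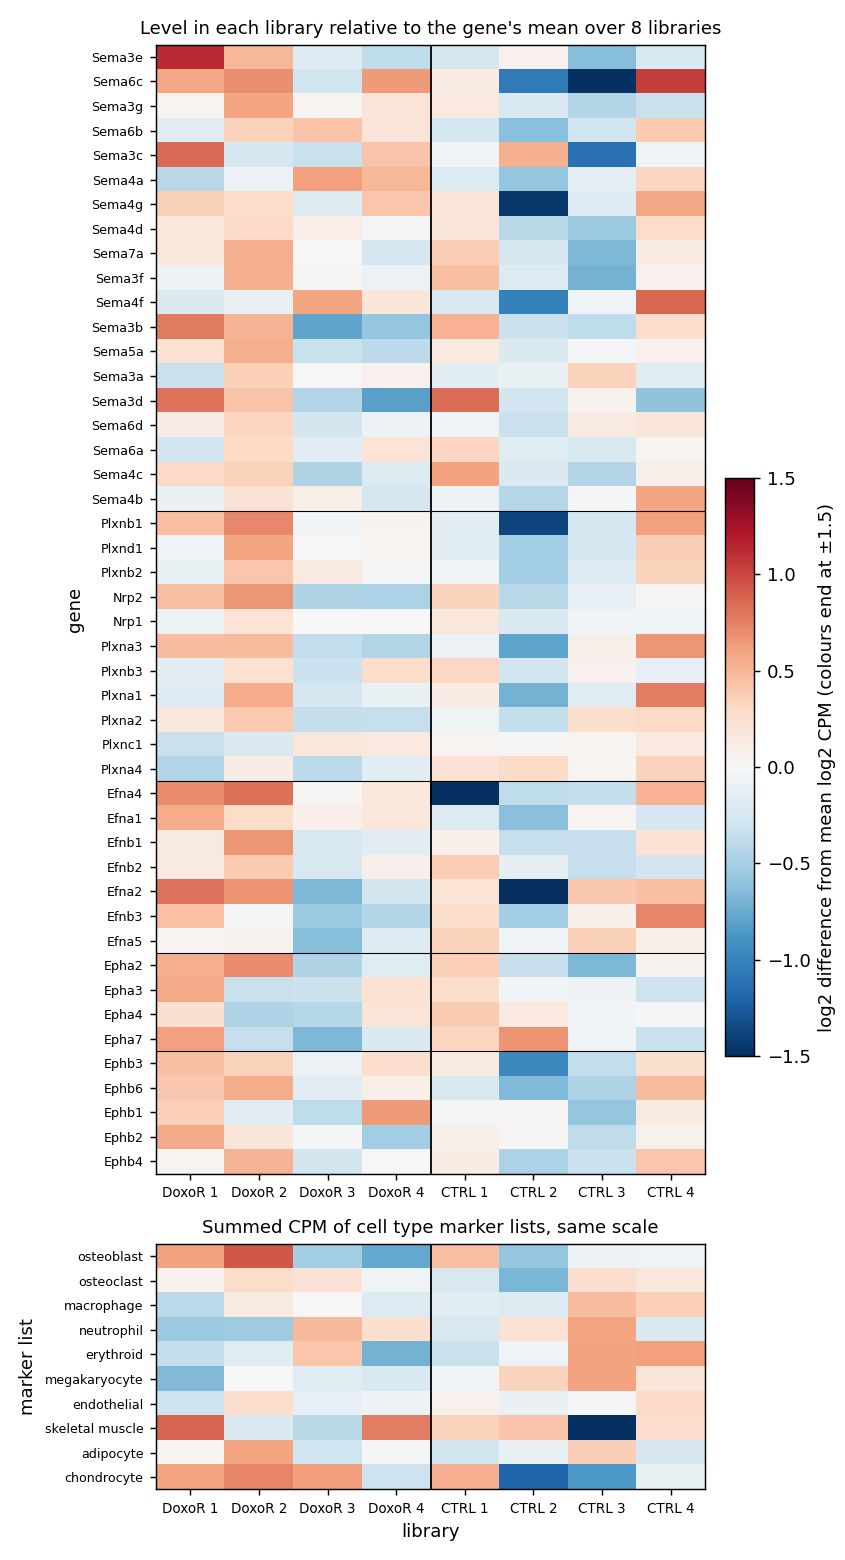
Upper panel, log2 CPM of the 46 tested members in each library minus the gene's mean over the 8 libraries, with doxorubicin (DoxoR) left of the line and vehicle (CTRL) right; lower panel, the same for summed CPM of 10 marker lists. DoxoR 2 is the highest library for 19 members and CTRL 2 the lowest for 17, and osteoblast markers are highest in DoxoR 2 (18500 CPM).

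Genes that act beside these receptors were taken from 3 lists that hold no member, and none of them passed adjustment in edgeR. Of 30 tested partners of semaphorin and plexin signalling, 17 lay above and 13 below 0 and the median was 0.06. Rap1a, the small GTPase that plexins inactivate, averaged 131 ± 3.68 CPM in doxorubicin bones and 166 ± 41.2 CPM in vehicle bones (SD, n = 4 each), a log2 fold change of −0.35 ± 0.17 (SE). Its groups overlapped. It had 136, 129, 129 and 129 CPM in DoxoR 1 to 4, against 134, 191, 211 and 129 CPM in CTRL 1 to 4. Only CTRL 2 and CTRL 3 stood above all doxorubicin libraries, and its unadjusted p in edgeR was 0.0634. Trem2 and Tyrobp, which in mice join plexin-A1 in the Sema6d receptor, had log2 fold changes of −0.10 ± 0.27 and −0.05 ± 0.23 (SE). Both were likewise picked with their values known.

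Of 29 tested partners of ephrin and Eph signalling, 17 lay above and 12 below 0, with a median of 0.01, and 5 had an unadjusted p under 0.05, against 5.36% of all genes. Kalrn, a guanine nucleotide exchange factor downstream of EphB receptors in neurons, had 58.2, 65.1, 52.0 and 52.8 CPM in DoxoR 1 to 4, against 76.5, 80.1, 74.3 and 67.6 CPM in CTRL 1 to 4. Every doxorubicin library lay below every vehicle library, with a log2 fold change of −0.39 ± 0.11 (SE; edgeR adjusted p = 0.817). Adam10, the protease that cleaves bound ephrins, had 141, 158, 174 and 141 CPM in DoxoR 1 to 4, against 184, 206, 235 and 175 CPM in CTRL 1 to 4, again without overlap, as in 3.59% of all genes. The gap was narrow, from 174 CPM in DoxoR 3 to 175 CPM in CTRL 4. The log2 fold change of Adam10 was −0.38 ± 0.13 (SE). That of Ngef (ephexin, an exchange factor bound to EphA receptors), whose groups overlapped, was 0.62 ± 0.22 (SE). In all, 3 of the 29 did not overlap, each lower in doxorubicin bones, beside 332 of all 17035 genes tested in that direction.

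Among 23 tested guidance genes of other families, 16 lay above and 7 below 0, with a median of 0.15 and 2 with an unadjusted p under 0.05, against 5.36% of all genes. Ntn1, the secreted cue netrin-1, had 7.05, 5.86, 4.28 and 4.69 CPM in DoxoR 1 to 4, against 3.90, 2.43, 2.21 and 4.12 CPM in CTRL 1 to 4. The groups did not overlap, as in 3.59% of all genes, and the log2 fold change was 0.79 ± 0.25 (SE; edgeR adjusted p = 0.825). Draxin, which binds netrin receptors, averaged 4.99 ± 1.14 CPM in doxorubicin bones and 7.38 ± 0.847 CPM in vehicle bones (SD, n = 4 each), a log2 fold change of −0.56 ± 0.18 (SE). Ntn4 had a log2 fold change of 0.22 ± 0.11 (SE). Besides Ntn1, the groups of Ntn4 (higher in doxorubicin bones) and of Draxin (lower) did not overlap. That made 2 of 23 higher and 1 lower, against 3.59% of all genes in either direction. The gaps were narrow for Ntn4 (9.88 CPM in DoxoR 3, 9.62 CPM in CTRL 4) and for Draxin (6.28 CPM in DoxoR 2, 6.41 CPM in CTRL 4).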

How the data were processed

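The deposited table holds expected counts per gene, 1 column per library and all whole numbers. STAR 2.5.3a and RSEM 1.3.0 are named in the submitters' processing notes, which name the build GRCh38 although the identifiers are of mouse. No source used here gives the role of each tool, the annotation, or the use of strand and of molecular identifiers. All 53 members matched GENCODE M21 (GRCm38) with their version, which gave positions and exon lengths. Each replicate was 1 mouse. The low-count filter was filterByExpr of edgeR (at least 10 counts, total at least 15); 17035 genes passed. Scaling was by TMM. The test was edgeR 4.0.16's robust quasi-likelihood test in R 4.3.3, two-sided, adjusted by Benjamini-Hochberg over all genes tested; it was checked on simulated data. SE was taken from the F statistic. DESeq2 1.42.0 and limma 3.58.1 (voom) were alternatives; an undefined DESeq2 adjusted p stayed undefined. CPM are TMM-scaled, and CPM per kb divides by the union of exons. RSEM can divide reads between similar paralogs. The number of mice limits precision for abundant genes and depth for those under 1 CPM.

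Members, gene lists and tests were chosen with earlier results of these data known. Genes named were, per family, the 2 with the smallest p and the most abundant per length. Added to these were a fixed set with known roles and up to 3 per partner list. Others are marked, or are given only for their level, their spread or their place in a count. The mice were treated as unpaired. Correlations of same-numbered deviations were 0.342, −0.266, 0.43 and 0.09, and those of differently numbered libraries lay between −0.417 and 0.228. So few values cannot decide whether the numbers pair the mice. Results for some of the partner genes are not reported here.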

Additional observations from a re-analysis of the deposited data

Results flagged for a closer look

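In 3 cases 1 library stood far from the other 3 of its group. Plxna1 was at 26.2 CPM in DoxoR 2, and Plxnd1 was at 83.9 CPM in the same library. Sema3a was at 24.5 CPM in CTRL 3. The 22 members named by rule gave 44 sets of 4 libraries, and chance alone marks about 1 in 20 such sets.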

How the results depend on the processing

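No member passed an adjusted p of 0.05 under any alternative run, nor of 0.1 in edgeR as reported. Over all genes edgeR called 1 without a filter on low counts, and DESeq2 called 29. The 3 members with an unadjusted p under 0.05 were 1 when scaled by library size alone, and between 2 and 8 with 1 library left out, the 8 being Sema6b, Efna4, Efna1, Plxnb1, Plxna4, Sema6c, Plxnd1 and Ephb6 without CTRL 4. Sema3g was not among them with the marrow or the muscle covariate, and Efna5 was with the marrow covariate. Members whose groups did not overlap numbered 0 when scaled by library size alone and between 1 and 6 with 1 library left out, the 6 again without CTRL 4. The share of all genes was counted only with all 8 libraries and TMM, at 3.59%. Groups separate more easily by chance with 1 library fewer, so these counts have no background beside them. The count above 0, whose alternatives were chosen after seeing the data, lay between 22 and 38 with 1 library left out, and at 40 without a filter and 26 with the marrow covariate. With the replicate number as a block, 3 members had an unadjusted p under 0.05, and 1466 genes against 913 without it. Of 198 log2 fold changes of the 22 named members under other settings, 194 kept their direction; those that did not were Efna2 (−0.087) and Nrp2 (−0.07) with the marrow covariate, and Sema6d (−0.028 when scaled by library size alone, −0.016 with that covariate). With 1 library left out, 159 of 176 kept it. The ranges that crossed 0 were −0.11 to 0.37 for Efna2, −0.028 to 0.32 for Efnb1, −0.079 to 0.27 for Ephb4, −0.019 to 0.14 for Nrp1, −0.095 to 0.32 for Nrp2, −0.31 to 0.23 for Plxna1, −0.11 to 0.15 for Sema3a and −0.094 to 0.11 for Sema6d. The cause was not tested. The 14 other named members kept their direction in every fit.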
